A study of Mus musculus with 16 samples.

Results

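The liver makes most of the circulating complement and coagulation proteins, and 40 of their genes were followed here through a high-fat diet (HFD) and treatment with nicotinamide mononucleotide (NMN). The members were named by gene, from the factors, cofactors and inhibitors of complement, coagulation and fibrinolysis. A gene entered the tests when a probe annotated with its symbol alone was detected, with p below 0.01, on 4 or more of the 16 arrays. This left 33 of the 40 genes, read by 34 probes (19 for coagulation and 15 for complement), among the 10550 probes tested in all. Masp2 had 2 probes. Probes for Fgb, the fibrinogen beta chain, and C9, the last component of the membrane attack complex, were detected on 0 arrays. For C3, Cfd, Cfp, Cpb2 and Protz no probe was named in the annotation used, and these 5 genes were not analysed here.

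Total RNA of frozen livers of female C57BL/6J mice had been hybridised to 1-colour Illumina bead arrays. The 16 arrays formed 4 groups of 4: HFD mice given intraperitoneal NMN, a precursor of the coenzyme NAD, for 7 days (chip B), HFD mice without NMN (chip B), HFD mice without NMN (chip A), and mice on regular chow (chip A). The HFD arrays of chip B carried the same 4 animal numbers as those of chip A, so the 16 arrays came from 12 mice. Chow mice were on chip A alone and NMN mice on chip B alone, and the ages of the mice, the length of feeding and the dose of NMN were not stated in the labels.

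Coagulation runs as a cascade of serine proteases. The contact factors F12, F11, Klkb1 and Kng1 start it on a surface, F7 starts it with tissue factor, and F9, F10 and F2 (prothrombin) carry it to the cleavage of fibrinogen, with antithrombin and protein C as brakes and plasmin as the enzyme that dissolves the clot. Complement is a second such cascade, entered through antibodies, through lectins that bind sugars on microbes, or through the alternative pathway, and it ends in a pore built from its terminal components. Hepatocytes secrete nearly all of these proteins into the plasma.

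All 16 arrays averaged a deposited signal of 202, which was 5.18 to 6.85 times background, and detected 9473 to 10569 probes. Precision is limited by the small number of arrays. Values are log2 intensities after background correction and quantile normalization. Of 14 hepatocyte genes 13 were detected (14 probes). Their means in chow mice ran from 5.05 (Tdo2) to 14.36 (Apoc3), with Alb at 5.88. In the same HFD mice, chip B minus chip A had a median of 0.02 over these probes. The largest differences among the 14 probes were 0.61 (Alb), 0.52 (Rbp4), 0.46 (Tdo2) and 0.41 (Apoh). Averages set against chow compare the groups and do not check the tissue. Averaged, and set against chow mice, these probes lay between -0.20 and 0.02 in NMN mice, between -0.11 and 0.01 in HFD mice on chip B, between -0.33 and -0.12 in HFD mice on chip A and between -0.02 and 0.02 in chow mice. With the diet, 1 of these 14 probes rose (Hpx) and 4 fell (Ahsg, Apoh and both probes of Cps1), where 2.75% of all probes rose and 3.55% fell. Apoh fell by 0.41 on chip A, but the same HFD mice averaged 9.83 on chip B, level with chow mice (9.83). In RNA of whole liver, fewer cells of a type and less RNA per cell cannot be told apart. Some lists of other cell types stood higher in HFD livers. Macrophage (6 of 10 detected) and endothelial genes (7 of 10) did so in all 4 HFD mice of chip A, above every chow mouse. Neutrophil genes (8 of 11) did so in HFD mice 1 to 3. On chip A the neutrophil mean was 1.02, 2.39, 2.04 and 0.04 above chow in HFD mice 1 to 4, and the macrophage mean 0.47, 1.56, 0.98 and 0.42. The endothelial mean was 0.36 to 0.52 above chow in these mice, against -0.23 to 0.28 in chow mice. The erythroid mean (3 of 6 genes detected) was 0.43 to 1.32, against -0.70 to 0.37 in chow mice, and the platelet mean (3 of 8) was -0.01 to 1.61, against -0.11 to 0.25 in chow mice. By gene, 2 macrophage, 2 endothelial (Stab2 and Lyve1), 1 erythroid (Slc4a1), 0 neutrophil and 0 platelet genes rose, where 2.75% of all probes did. Not all lists were higher. Median diet differences were -0.29 for T and NK cell genes (2 of 9 detected) and -0.19 for acinar genes (2 of 6). They were 0.0054 for stellate genes (7 of 9), 0.06 for adipocyte genes (1 of 8) and 0.65 for B cell genes (2 of 6). In each of these lists 0 genes passed. The part of these cell types in the results below was not tested. Counts of members are also given without HFD mice 2 and 3. Those counts cannot show that part, because fewer mice remain and the neutrophil mean of HFD mouse 1 was also raised.

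**Figure D1:**
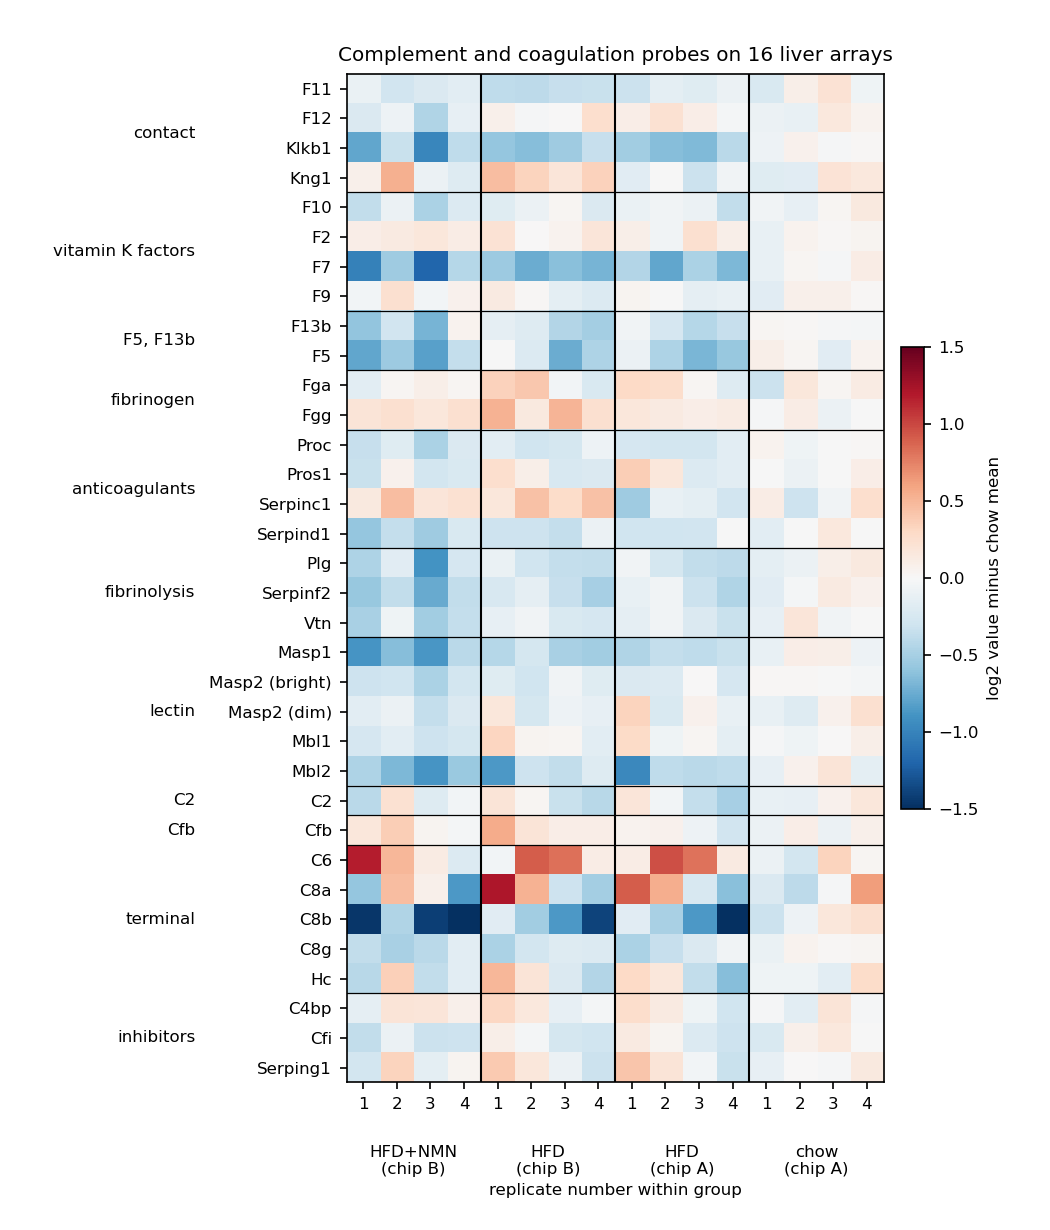
Normalized log2 value minus the chow mean for each of the 34 member probes (rows, by role) on each of the 16 arrays (columns, mice 1 to 4 of each group). Blue is below and red above the chow mean, and the darkest colours also stand for values beyond the scale, as for C8b in NMN mouse 4. Rows for Klkb1, F7 and Masp1 are blue in every NMN and HFD array, and C8a, C8b and C6 vary most between mice.

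The comparison on chip A asked how HFD livers differed from chow livers. Of the 34 member probes, 3 passed the threshold of an adjusted p under 0.05, and all 3 fell: Klkb1, F7 and Masp1. That is 3 lower and 0 higher, where 3.55% of all probes were lower and 2.75% higher, and 6.3% passed in either direction. The arrays of HFD mice lay wholly below those of chow mice for 6 members, against 8.07% of all probes. These were the 3 probes named above with Mbl2, Proc and F13b. Unadjusted, 12 of the 34 had a p under 0.05, beside 24.6% of all probes. In all, 23 members had a difference below 0 and 11 above it, with a median of -0.16 (all probes: -0.01). Over all probes, 5598 of 10550 were below 0. By system, the counts were 2 of 19 coagulation probes and 1 of 15 complement probes. The count of 3 was 0 when HFD mouse 2 or HFD mouse 3 or both were left out, 1 without chow mouse 2 or 4, 5 without HFD mouse 4, and 6 with the deposited signal on the log2 scale without further normalization or with estimated array weights. The count over all probes, 665 as reported, also fell, to 140 without HFD mice 2 and 3.

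The comparison on chip B asked how NMN changed HFD livers. Of the 34 members 0 passed, as did 0% of all probes, and 4 members had an unadjusted p under 0.05, against 9.57% of all probes. Arrays did not overlap for 2 members (F12 lower, F11 higher), beside 4.78% of all probes. Most member differences were negative, with 30 below 0 and 4 above, where 5420 of all 10550 probes were below 0. The member differences ranged from -0.50 to 0.17, with a median of -0.15 (all probes: -0.0043). Member probes varied together between mice (median r = 0.59, given below), so these signs are not separate observations. Both comparisons rest on the same 4 HFD mice, measured once on each chip. For the 3 genes that fell with the diet, the NMN means lay below the HFD means of chip B, with differences of -0.09 for Klkb1, -0.14 for F7 and -0.28 for Masp1. Averaged over the 34 probes, NMN mice 1 to 4 stood at -0.33, -0.06, -0.39 and -0.23 relative to chow. In the same order HFD mice stood at 0.03, -0.05, -0.18 and -0.22 on chip B and at -0.04, -0.08, -0.20 and -0.29 on chip A, and chow mice at -0.10, -0.03, 0.05 and 0.08. NMN mice 1 and 3 were thus below every HFD array, NMN mouse 4 was level with the lowest HFD mouse of chip B, and NMN mouse 2 was inside the range of the HFD mice. In 15 of the 34 probes NMN mouse 3 was the lowest NMN array and in 12 NMN mouse 1, and NMN mouse 2 was the highest in 22.

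**Figure D2:**
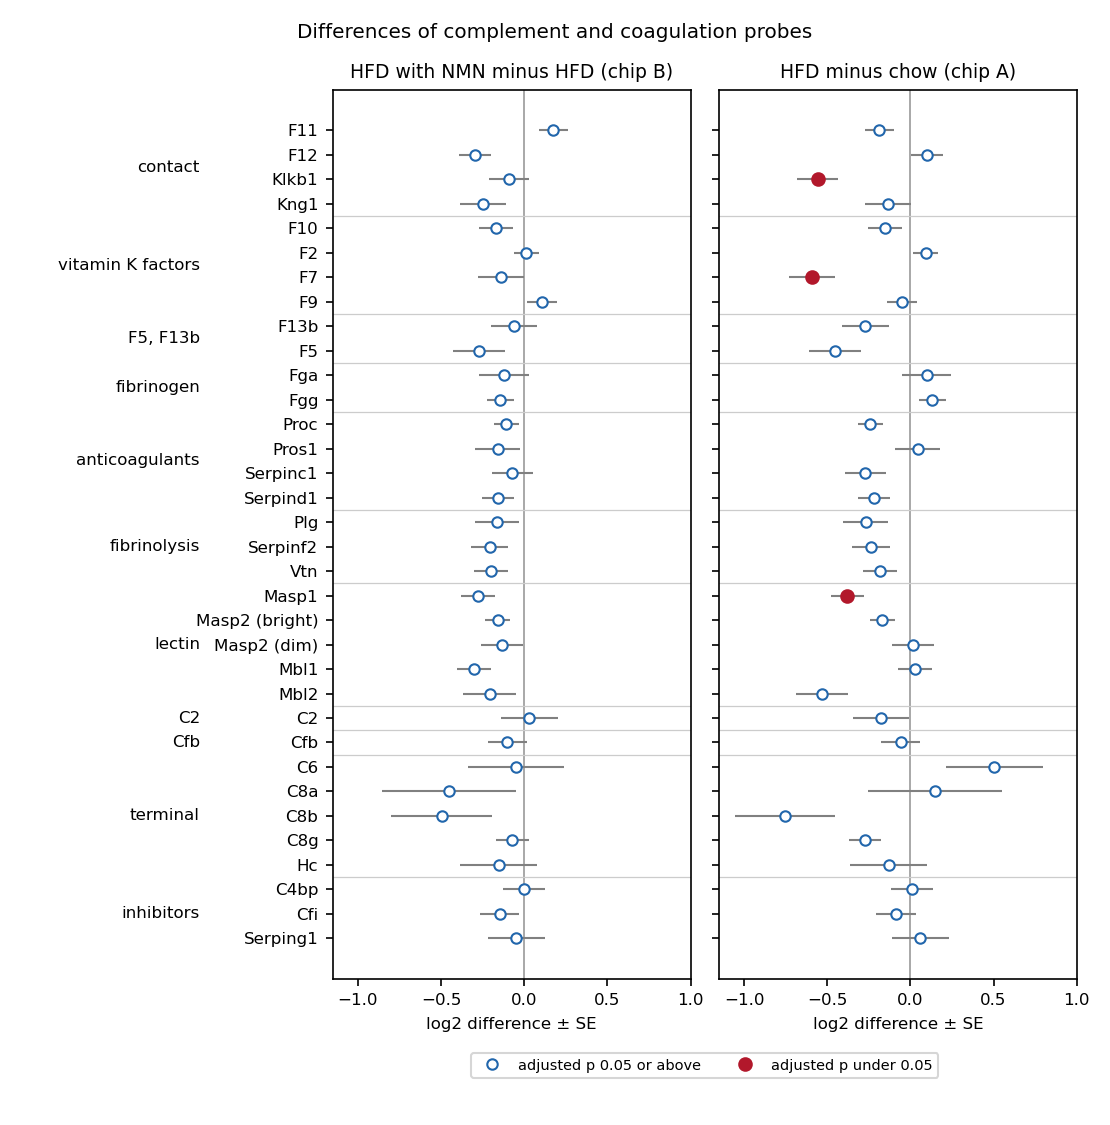
Log2 differences of the 34 member probes with their SE, for HFD with NMN minus HFD on chip B (left) and HFD minus chow on chip A (right), 4 arrays a group. Filled points passed the adjusted threshold: 0 on the left, and Klkb1, F7 and Masp1 on the right, all below 0.

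Klkb1 encodes plasma prekallikrein, the contact protease that activates factor XII and frees bradykinin from kininogen. Its values were 8.59, 9.03, 8.39 and 8.99 in NMN mice and 8.79, 8.73, 8.83 and 9.03 in HFD mice on chip B. On chip A they were 8.85, 8.73, 8.71 and 8.96 in HFD mice, against 9.30, 9.44, 9.35 and 9.38 in chow mice. All HFD arrays of chip A lay below all chow arrays, and the ranges of NMN and HFD mice overlapped. The diet difference was -0.56 (SE 0.12, adjusted p = 0.0160), a 1.47-fold lower value. It was the most stable of the 3 calls, lost only without HFD mouse 2 (adjusted p = 0.0529), HFD mouse 3 (0.0696) or both (0.193) among the alternatives tried. In all fits that left mice out the difference was -0.46 to -0.61.

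Next to Klkb1 on chromosome 8, with no coding gene between them, lies F11, whose product is activated by factor XIIa. F11 gave a dim signal: 5.14, 4.95, 5.02 and 5.08 in NMN mice, 4.86, 4.85, 4.89 and 4.91 in HFD mice on chip B, 4.92, 5.09, 5.05 and 5.15 in HFD mice on chip A, and 5.01, 5.32, 5.45 and 5.17 in chow mice. All NMN arrays were above all HFD arrays of chip B, where 2.35% of probes were, and HFD and chow arrays overlapped. The differences were 0.17 (SE 0.09, adjusted p = 0.557) with NMN and -0.19 (SE 0.09, adjusted p = 0.202) with the diet. The same HFD mice read 0.18 lower on chip B than on chip A, about as much as either difference, and that chip difference was 0.01 in the deposited signal without further normalization.

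F12, the protease that opens the contact pathway, had the smallest NMN p among the members. It read 8.10, 8.24, 7.85 and 8.18 in NMN mice and 8.38, 8.30, 8.32 and 8.56 in HFD mice on chip B, so all NMN arrays were lower, as for 2.43% of all probes. The difference of -0.30 (SE 0.10, adjusted p = 0.335) did not pass. In HFD mice on chip A it read 8.41, 8.53, 8.41 and 8.27, against 8.21, 8.19, 8.47 and 8.36 in chow mice, which overlapped. Kng1, the kininogen that carries bradykinin, was the only tested member detected on fewer than 16 arrays (15). It read 5.06, 5.51, 4.89 and 4.79 in NMN mice, 5.45, 5.31, 5.16 and 5.33 in HFD mice on chip B, 4.81, 4.98, 4.66 and 4.93 in HFD mice on chip A and 4.79, 4.81, 5.18 and 5.13 in chow mice. NMN and HFD arrays overlapped, and so did HFD and chow arrays. Its NMN difference was -0.25 (SE 0.14, adjusted p = 0.607).

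F7, the vitamin K-dependent protease that starts clotting together with tissue factor, was the 1 of 4 vitamin K factors that fell with the diet. The values were 7.99, 8.48, 7.82 and 8.58 in NMN mice and 8.46, 8.26, 8.39 and 8.32 in HFD mice on chip B. They were 8.57, 8.23, 8.53 and 8.34 in HFD mice on chip A, against 8.90, 9.04, 8.99 and 9.12 in chow mice. Every HFD array of chip A was below every chow array, while NMN mice lay on either side of the HFD mice. With the diet the difference was -0.59 (SE 0.14, adjusted p = 0.0214), 1.51-fold lower. It missed the threshold without HFD mouse 2 (adjusted p = 0.0730), HFD mouse 3 (0.0560), both of them (0.176), chow mouse 2 (0.0509) or chow mouse 4 (0.0646), and with no filter on detection (0.0544). The difference itself was -0.53 to -0.64 in all fits that left mice out.

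F10, the factor that cleaves prothrombin, follows F7 on chromosome 8 with no coding gene between them. Its arrays overlapped in both comparisons: 11.84, 12.12, 11.73 and 11.996 in NMN mice and 12.02, 12.12, 12.23 and 11.98 in HFD mice on chip B, then 12.10, 12.15, 12.12 and 11.83 in HFD mice on chip A and 12.15, 12.08, 12.23 and 12.36 in chow mice. The diet difference of F10 was -0.15 (SE 0.10, adjusted p = 0.368). F9 and F2, the antihemophilic factor and prothrombin, did not pass either, at -0.05 (SE 0.09) and 0.09 (SE 0.07) with the diet and 0.11 (SE 0.09) and 0.01 (SE 0.07) with NMN. Whether F7 and F10, or Klkb1 and F11, differ from each other in their response was not tested.

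The promoters of these neighbouring pairs are shown because 1 gene of each pair fell with the diet. They run from 250 bases before to 50 bases after the RefSeq start in build GRCm38.p6: Klkb1 at chr8:45294786-45295085 and F11 at chr8:45261982-45262281, both on the minus strand, and F7 at chr8:13025784-13026083 and F10 at chr8:13037058-13037357, both on the plus strand. Capitals mark matches to 7 short motifs, searched on both strands.
Klkb1: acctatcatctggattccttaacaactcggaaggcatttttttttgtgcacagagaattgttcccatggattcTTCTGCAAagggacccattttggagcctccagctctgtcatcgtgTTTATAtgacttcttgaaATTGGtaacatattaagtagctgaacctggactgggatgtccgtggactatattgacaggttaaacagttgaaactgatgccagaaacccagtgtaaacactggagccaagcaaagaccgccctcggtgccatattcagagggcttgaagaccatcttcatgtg
F11: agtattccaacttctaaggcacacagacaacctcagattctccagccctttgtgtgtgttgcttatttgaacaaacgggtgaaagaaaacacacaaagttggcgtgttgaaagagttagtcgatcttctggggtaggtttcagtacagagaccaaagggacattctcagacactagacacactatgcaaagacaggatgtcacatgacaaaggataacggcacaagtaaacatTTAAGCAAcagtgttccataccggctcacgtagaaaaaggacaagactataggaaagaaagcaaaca
F7: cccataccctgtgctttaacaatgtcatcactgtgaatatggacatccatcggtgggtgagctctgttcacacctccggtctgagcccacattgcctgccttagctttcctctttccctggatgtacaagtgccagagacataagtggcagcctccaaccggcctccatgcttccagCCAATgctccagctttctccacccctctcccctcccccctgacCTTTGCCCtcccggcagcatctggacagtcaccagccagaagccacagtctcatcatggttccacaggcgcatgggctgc
F10: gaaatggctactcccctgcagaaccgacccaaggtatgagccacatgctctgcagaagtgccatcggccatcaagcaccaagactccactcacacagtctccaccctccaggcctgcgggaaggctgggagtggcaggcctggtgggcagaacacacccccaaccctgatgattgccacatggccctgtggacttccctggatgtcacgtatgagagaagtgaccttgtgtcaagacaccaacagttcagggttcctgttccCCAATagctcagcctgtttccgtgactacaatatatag
In these windows Klkb1 held the letters TATAAA on the opposite strand 132 bases before the start, along with a CCAAT box and a C/EBP-like match (TTGCNNAA), both also on the opposite strand, and F11 held a C/EBP-like match. F7 held a CCAAT box 73 bases before the start and the core GGNCAAAG of an HNF4 repeat 30 bases before it, and F10 held a CCAAT box downstream of its start. That core was added to the search after the F7 window had been read. Of the 33 genes tested, 25 had a promoter in the table. Members with a match, set beside the share of all 32544 promoters, were 3 of 25 and 13.6% for TATAAA, 6 of 25 and 37.4% for CCAAT, 5 of 25 and 10.8% for TTGCNNAA, and 3 of 25 (F7, F12 and Serpinc1) and 5.64% for GGNCAAAG. For STAT (TTCNNNGAA) they were 6 of 25 and 8.33%, for the HNF1 motif 1 of 25 (C4bp) and 0.114%, and for a further HNF4 motif (CAAAGTCC) 0 of 25 and 1.43%. A match describes the letters alone.

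**Figure D3:**
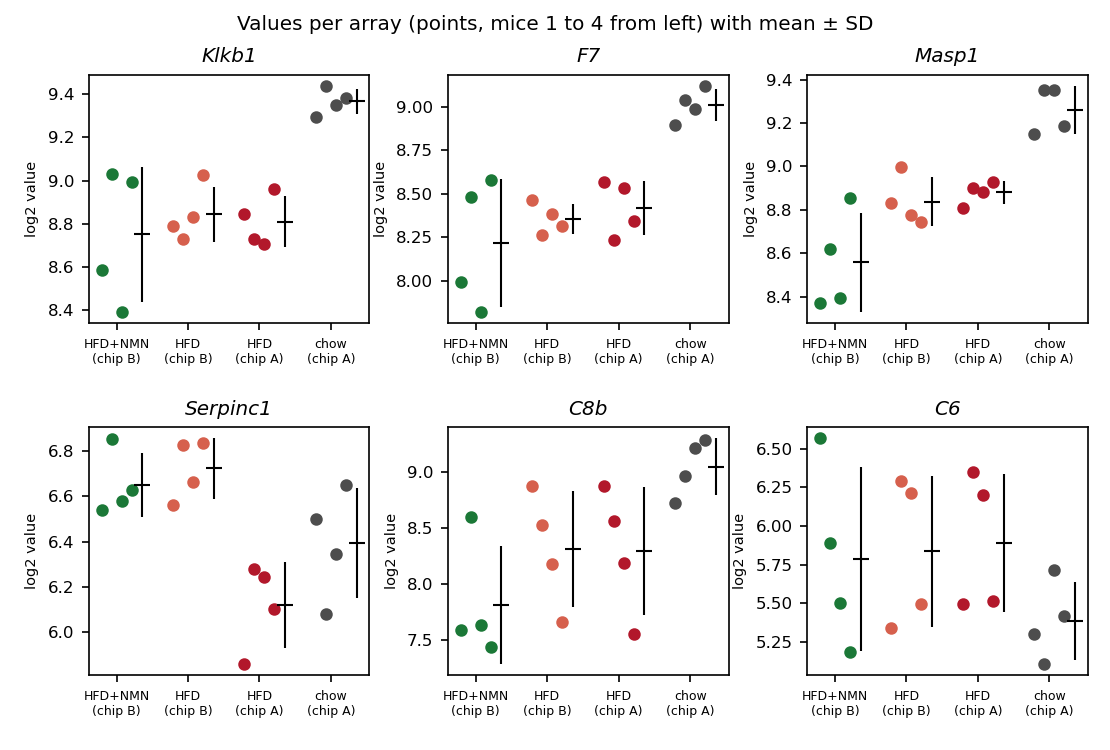
Normalized log2 values of 6 members on each array (points, mice 1 to 4 from left in each group), with the mean and SD of the 4 arrays to the right. For Klkb1, F7 and Masp1 all HFD points of chip A lie below all chow points, Serpinc1 differs between the chips in the same HFD mice, and C8b and C6 spread widely within groups.

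F5, the cofactor that speeds the activation of prothrombin, read 7.63, 7.87, 7.603 and 8.06 in NMN mice and 8.41, 8.21, 7.67 and 7.96 in HFD mice on chip B. On chip A it read 8.33, 7.95, 7.73 and 7.85 in HFD mice, against 8.51, 8.45, 8.25 and 8.47 in chow mice. HFD mouse 1 reached into the chow range and the other HFD mice lay below it. The diet difference was -0.45 (SE 0.16, adjusted p = 0.0948), and it passed without HFD mouse 1 (-0.57, adjusted p = 0.0306). F13b, the carrier subunit of the enzyme that cross-links fibrin, was close to constant in chow mice (10.59, 10.57, 10.54 and 10.53) and lower in all HFD mice of chip A (10.50, 10.30, 10.13 and 10.21). On chip B it read 9.97, 10.27, 9.86 and 10.62 in NMN mice and 10.43, 10.37, 10.11 and 10.04 in HFD mice, which overlapped. The diet difference of -0.27 (SE 0.14, adjusted p = 0.245) did not pass.

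The fibrinogen chains Fga and Fgg, which with the beta chain form the clot protein, did not pass in either comparison. Fga read 13.20, 13.38, 13.43 and 13.38 in NMN mice, 13.69, 13.75, 13.31 and 13.12 in HFD mice on chip B, 13.65, 13.61, 13.38 and 13.15 in HFD mice on chip A and 13.02, 13.52, 13.38 and 13.48 in chow mice. Fgg read 11.49, 11.55, 11.47 and 11.54 in NMN mice, 11.82, 11.45, 11.82 and 11.54 in HFD mice on chip B, 11.47, 11.44, 11.4003 and 11.4302 in HFD mice on chip A and 11.29, 11.41, 11.22 and 11.30 in chow mice. The groups overlapped in both genes, by the narrowest margin for HFD against chow in Fgg. Their diet differences were 0.10 (SE 0.15) and 0.13 (SE 0.08). The 2 genes are neighbours of Fgb on chromosome 3, whose own probe was not detected.

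Among the anticoagulants, Proc (protein C, which inactivates factors V and VIII) read 11.04, 11.21, 10.91 and 11.17 in NMN mice and 11.23, 11.10, 11.13 and 11.31 in HFD mice on chip B. It read 11.13, 11.12, 11.11 and 11.23 in HFD mice on chip A, against 11.44, 11.329, 11.38 and 11.41 in chow mice. All HFD arrays of chip A were lower than all chow arrays, and the difference of -0.24 (SE 0.08, adjusted p = 0.0677) missed the threshold by little. It passed under 5 of 25 alternatives. Serpinc1, antithrombin, had a diet difference of -0.27 (SE 0.12, adjusted p = 0.184), and its values are given with the chips below. Serpind1, heparin cofactor II, and Pros1, protein S, had -0.22 (SE 0.10) and 0.04 (SE 0.14) with the diet, and -0.16 (SE 0.10) and -0.16 (SE 0.14) with NMN.

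The 3 fibrinolysis members had negative differences in both comparisons, and 0 passed. Plg, the plasmin precursor, read 9.94, 10.23, 9.51 and 10.15 in NMN mice, 10.31, 10.10, 10.04 and 10.04 in HFD mice on chip B, 10.36, 10.14, 10.04 and 10.01 in HFD mice on chip A and 10.25, 10.32, 10.49 and 10.54 in chow mice. Serpinf2, the plasmin inhibitor, read 11.42, 11.61, 11.23 and 11.61 in NMN mice, 11.74, 11.84, 11.64 and 11.49 in HFD mice on chip B, 11.87, 11.93, 11.66 and 11.53 in HFD mice on chip A and 11.81, 11.95, 12.11 and 12.05 in chow mice. Vtn, vitronectin, a plasma protein that binds plasminogen activator inhibitor and the terminal complement complex, read 12.29, 12.72, 12.26 and 12.43 in NMN mice, 12.67, 12.73, 12.56 and 12.54 in HFD mice on chip B, 12.64, 12.73, 12.57 and 12.45 in HFD mice on chip A and 12.66, 12.97, 12.73 and 12.78 in chow mice. The groups overlapped in every case. The diet differences were -0.27 (SE 0.13), -0.24 (SE 0.11) and -0.18 (SE 0.10), and those with NMN were -0.16 (SE 0.13), -0.21 (SE 0.11) and -0.20 (SE 0.10).

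Of the lectin pathway, Masp1, a protease bound to mannose-binding lectin, fell with the diet. Its values were 8.37, 8.62, 8.39 and 8.86 in NMN mice and 8.83, 8.998, 8.78 and 8.74 in HFD mice on chip B. On chip A they were 8.81, 8.90, 8.88 and 8.93 in HFD mice, against 9.15, 9.35, 9.35 and 9.19 in chow mice. HFD and chow arrays did not overlap, and 3 of 4 NMN arrays were below all HFD arrays of chip B. The diet difference was -0.38 (SE 0.10, adjusted p = 0.0357), 1.30-fold lower, and the NMN difference was -0.28 (SE 0.10, adjusted p = 0.383). The diet call was the least stable of the 3, lost in 10 of 25 alternatives with an adjusted p of up to 0.186, 8 of which left out 1 or 2 mice. The difference itself was -0.35 to -0.42 with any 1 mouse left out.

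Mbl2 and Mbl1 encode the mannose-binding lectins. Mbl2 read 10.63, 10.42, 10.20 and 10.54 in NMN mice and 10.23, 10.78, 10.72 and 10.90 in HFD mice on chip B. In HFD mice on chip A it read 10.13, 10.71, 10.69 and 10.71, against 10.97, 11.16, 11.29 and 10.95 in chow mice. HFD mouse 1 stood far below the other HFD mice on both chips, and all HFD arrays were below the chow arrays. With the diet the difference was -0.53 (SE 0.16, adjusted p = 0.0547), which passed in 4 of 25 alternatives. Among them was the replicate number as a block, although the numbers did not pair HFD and chow mice. Mbl1 read 11.24, 11.334, 11.17 and 11.23 in NMN mice and 11.80, 11.53, 11.51 and 11.325 in HFD mice on chip B, so that NMN mouse 2 and HFD mouse 4 were level and the rest were apart. It read 11.77, 11.426, 11.52 and 11.3405 in HFD mice on chip A and 11.47, 11.42, 11.49 and 11.57 in chow mice, which overlapped. The NMN difference of Mbl1 was -0.30 (SE 0.10, adjusted p = 0.344), and that with the diet was 0.03 (SE 0.10).

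Masp2, the lectin-bound protease that cleaves C4 and C2, had a bright and a dim probe. The bright probe read 10.43, 10.45, 10.27 and 10.47 in NMN mice, 10.56, 10.45, 10.69 and 10.56 in HFD mice on chip B, 10.52, 10.54, 10.75 and 10.49 in HFD mice on chip A and 10.76, 10.76, 10.73 and 10.71 in chow mice. The dim probe read 7.21, 7.29, 7.02 and 7.15 in NMN mice, 7.54, 7.10, 7.30 and 7.25 in HFD mice on chip B, 7.70, 7.14, 7.44 and 7.26 in HFD mice on chip A and 7.26, 7.18, 7.43 and 7.61 in chow mice. All these groups overlapped, and the diet differences were -0.17 (SE 0.07, adjusted p = 0.177) for the bright probe and 0.02 (SE 0.13) for the dim one. With NMN they were -0.16 (SE 0.07, adjusted p = 0.519) and -0.13 (SE 0.13).

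C2 and Cfb, neighbours on chromosome 17, encode the related proteases of the classical and the alternative convertase. C2 read 10.27, 10.91, 10.49 and 10.64 in NMN mice, 10.88, 10.71, 10.34 and 10.26 in HFD mice on chip B, 10.86, 10.64, 10.32 and 10.18 in HFD mice on chip A and 10.57, 10.55, 10.74 and 10.85 in chow mice. Cfb read 8.82, 9.03, 8.70 and 8.62 in NMN mice, 9.21, 8.85, 8.75 and 8.75 in HFD mice on chip B, 8.71, 8.72, 8.58 and 8.37 in HFD mice on chip A and 8.57, 8.75, 8.56 and 8.73 in chow mice. The groups of both comparisons overlapped in both genes, with diet differences of -0.18 (SE 0.17) and -0.06 (SE 0.12).

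Of the terminal components, which build the pore, C8a, C8b, C6 and Hc had the largest SDs between HFD mice of all members on either chip, and C8g did not. C8b, the C8 beta chain, had the largest diet difference among the members, -0.75, but its SE was 0.30 and its adjusted p = 0.140. It read 7.59, 8.59, 7.63 and 7.43 in NMN mice, 8.87, 8.52, 8.18 and 7.65 in HFD mice on chip B, 8.88, 8.56, 8.18 and 7.55 in HFD mice on chip A and 8.72, 8.97, 9.21 and 9.28 in chow mice. HFD mouse 1 lay within the chow range on chip A and HFD mouse 4 far below it. C8g, the gamma chain, read 12.15, 12.04, 12.12 and 12.37 in NMN mice, 12.06, 12.25, 12.34 and 12.32 in HFD mice on chip B, 12.06, 12.18, 12.31 and 12.47 in HFD mice on chip A and 12.43, 12.58, 12.54 and 12.55 in chow mice. HFD mouse 4 alone reached into the chow range, and the difference was -0.27 (SE 0.10, adjusted p = 0.103). C8a, the alpha chain and the neighbour of C8b on chromosome 4, had 0.15 (SE 0.40) with the diet and -0.45 (SE 0.40) with NMN, and Hc, which encodes C5, had -0.13 (SE 0.23) and -0.15 (SE 0.23).

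C6, which joins C5b at the start of the pore, was the member with the largest positive diet difference, 0.51 (SE 0.29, adjusted p = 0.298). It read 6.57, 5.89, 5.51 and 5.18 in NMN mice, 5.34, 6.29, 6.21 and 5.50 in HFD mice on chip B, 5.50, 6.35, 6.20 and 5.52 in HFD mice on chip A and 5.30, 5.11, 5.71 and 5.42 in chow mice. NMN mouse 1 and HFD mice 2 and 3 were high, and the groups overlapped. In the same mice the mean of the macrophage genes was highest: above chow by 1.67, 0.53, 0.88 and 0.29 in NMN mice 1 to 4, and by 0.60, 1.57, 0.99 and 0.41 in HFD mice on chip B. The neutrophil and platelet means were highest in these mice as well. They stood at 0.90 and 0.35 in NMN mouse 1. On chip B they were 2.36 and 1.57 in HFD mouse 2, and 2.04 and 1.27 in HFD mouse 3. The endothelial mean was also highest in NMN mouse 1 (0.412) and, on chip B, in HFD mice 2 (0.495) and 3 (0.404). On chip A it was lowest in HFD mouse 3 (0.355). The B cell mean was highest in NMN mouse 3 (2.17). The erythroid mean on chip B was lower in HFD mouse 2 (0.79) than in HFD mouse 4 (0.88). The part of these cells in the C6 values was not tested.

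The 3 inhibitors did not pass in either comparison. Serping1, the C1 inhibitor, which also blocks kallikrein and factor XIIa, read 11.85, 12.45, 11.98 and 12.17 in NMN mice, 12.52, 12.29, 12.04 and 11.80 in HFD mice on chip B, 12.54, 12.32, 12.08 and 11.80 in HFD mice on chip A and 11.996, 12.13, 12.10 and 12.27 in chow mice. C4bp, a C4b-binding protein, read 9.84, 10.17, 10.16 and 10.05 in NMN mice, 10.29, 10.14, 9.86 and 9.95 in HFD mice on chip B, 10.24, 10.12, 9.92 and 9.68 in HFD mice on chip A and 9.97, 9.82, 10.17 and 9.96 in chow mice. In both genes the chow mice lay inside the range of the HFD mice. Cfi, the protease that inactivates C3b and C4b, differed by -0.09 (SE 0.12) with the diet and -0.15 (SE 0.12) with NMN.

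HFD mice differed from each other more than the 2 arrays of a mouse did. The median SD over the member probes was 0.17 between HFD mice on either chip and 0.06 between the arrays of a mouse, after the mean chip difference of each probe was removed. Over all probes it was 0.15 on chip B, 0.14 on chip A and 0.07 between arrays of a mouse. In 31 of the 34 members (91.2%) the spread between mice on chip A was the larger, against 82.4% of all probes. This count was not made for chip B. Across the 34 member probes, how far each mouse lay from the average HFD mouse on chip B correlated with the same measure on chip A at r = 0.952, 0.806, 0.851 and 0.917 for HFD mice 1 to 4, and arrays of different mice gave -0.7777 to 0.4662. Over all tested probes the same mouse gave r = 0.880, 0.883, 0.734 and 0.854. Centring on the 4 HFD mice of a chip in itself lowers r between different mice. The member probes of an array share its RNA and its normalization.

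In 8 members HFD mouse 1 was the highest and HFD mouse 4 the lowest on both chips: C2, C8a, C8b, Cfi, Hc, Mbl1, Plg and Serping1, a group chosen after the values were seen. That order was found in 23.5% of member probes and 3.31% of all probes. NMN mouse 2 was the highest NMN array in all 8, and chow mouse 4 the highest chow array in 7. Over all 34 members they were the highest in 22 and 12. For these counts, and for the ranges that follow, no share over all probes was taken. The range over HFD mice on chip A exceeded the range over chow mice in each of the 8 and in 24 of all 34 members. Over the 12 mice, with the arrays of an HFD mouse averaged, the deviations of a member from its group means correlated with the mean of the other 33 member probes at a median r of 0.59, and 30 of 34 gave an r above 0. The highest were Serping1 (0.91), C2 (0.90) and F9 (0.89). The lowest were C8g (-0.42), Mbl2 (-0.27) and F11 (-0.14). Within its own list, C8g also went against the other terminal components (r = -0.76), whereas C8b followed them (0.89).

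**Figure D4:**
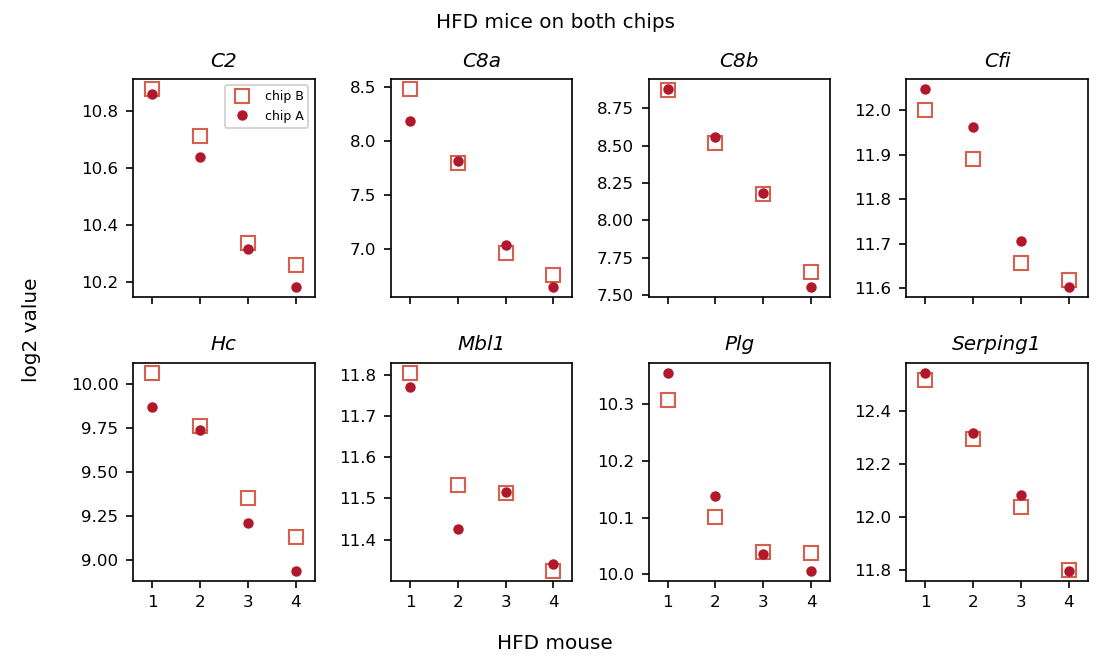
Normalized log2 values of 8 members in HFD mice 1 to 4, with open squares for chip B and filled circles for chip A. The arrays of a mouse lie close together, mouse 1 is highest and mouse 4 lowest in all panels, the pattern by which these members were chosen.

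The HFD mice also measured the chips, since their RNA was on both. For chip B minus chip A, 0 of 34 members and 0.0474% of all probes passed without regard to the mouse, and 4 members did not overlap, where 2.37% of all probes did not. With the mouse as a block, 2 members passed (0.18% of all probes), and both were higher on chip B. Serpinc1, the thrombin inhibitor antithrombin, differed most. It read 6.56, 6.83, 6.66 and 6.84 in HFD mice on chip B and 5.86, 6.28, 6.24 and 6.10 in the same mice on chip A, higher on chip B in 4 of 4 mice. The difference was 0.60 (SE 0.12, adjusted p = 0.180), and with the block the SE was 0.06 and the adjusted p = 0.00840. In the deposited z scores, which are on another scale, the difference was 0.13 and did not pass. NMN mice on chip B read 6.54, 6.86, 6.58 and 6.63, and chow mice on chip A 6.50, 6.08, 6.35 and 6.65. The chip difference of Serpinc1 was thus larger than its diet difference of -0.27 within chip A and its NMN difference of -0.07 within chip B.

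Kng1 was 0.47 higher on chip B (SE 0.14, adjusted p = 0.787; with the block, SE 0.06 and adjusted p = 0.0245), again in 4 of 4 mice, although in the deposited z scores its difference was -0.03. Cfb, with 0.30 (SE 0.12), and Fgg, with 0.22 (SE 0.08), were also higher on chip B and passed neither without a block nor with the mouse as a fixed block (adjusted p = 0.114 and 0.222). With the mouse as a random block instead, 5 members passed, against 4.88% of all probes: Serpinc1, Kng1, Cfb, Fgg and F11, the last lower on chip B. Of the members, 19 (55.9%) had a mean log2 value of at least 9.72, the bound of the brightest 1055 of all tested probes, of which 0 passed without a block or with the fixed block and 1, Fgg, with the random block. Their median chip difference was 0.02, against -0.01 for all these bright probes. Serpinc1 and Kng1 were much dimmer. In the deposited signal the brightest probe of an array reached 18538 to 20639 on chip B and 20651 to 24246 on chip A. At the top of the range normalization gives arrays tied values: of the 16 values of Fga, 13 were distinct, and for F10 and Vtn 14 were.

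**Figure D5:**
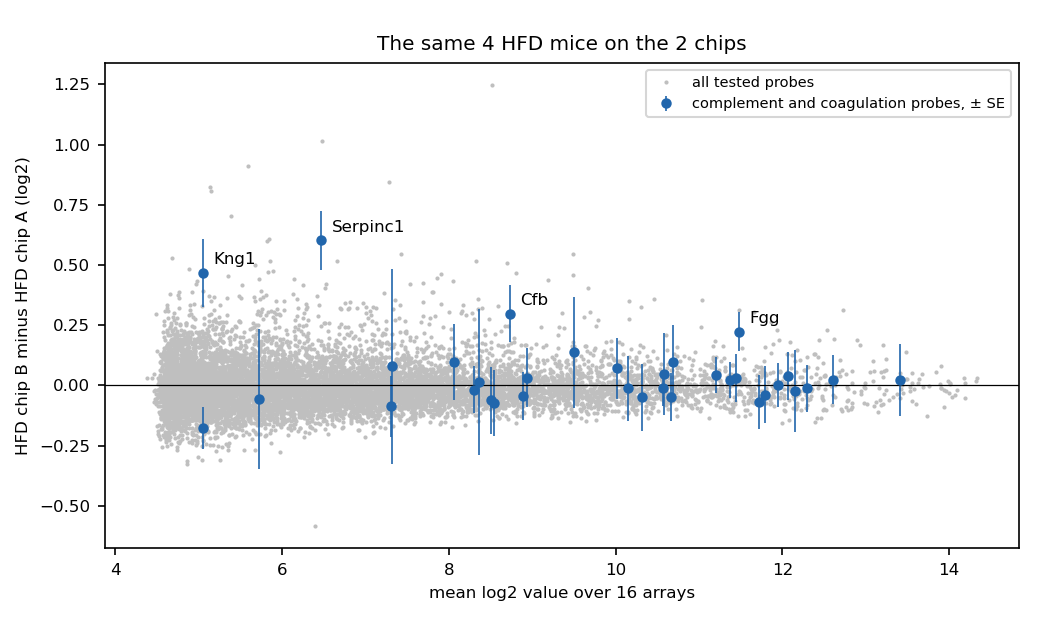
Difference between the chips for the same 4 HFD mice (chip B minus chip A, log2) against the mean log2 value over the 16 arrays, for all 10550 tested probes (grey) and the 34 member probes with their SE (blue). Serpinc1 (0.60) and Kng1 (0.47) are the highest members, and most of the brightest members lie near 0.

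Other genes of the same cascades were read from lists of the pathways. Among all probes, 2.75% rose and 3.55% fell with the diet. Of 36 further complement genes 15 were detected, and with the diet 0 rose and 1 fell: C1rl, a protease related to C1r, by 0.37 (SE 0.09, adjusted p = 0.0339). Of 37 further coagulation genes 23 were detected, and 3 rose and 2 fell. Anxa2, a plasminogen receptor on cell surfaces, rose by 1.55 (SE 0.31), F2r, a thrombin receptor, by 0.72 (SE 0.14) and Plau, urokinase, by 0.46 (SE 0.10). Plau was dim, with means of 4.58 in chow mice and 5.04 in HFD mice on chip A. Lman1, the transport receptor for factors V and VIII in the secretory pathway, fell by 0.39 (SE 0.09). Serpina1e fell by 1.86 (SE 0.33), from 7.02 in chow mice to a dim 5.16 in HFD mice on chip A. The same HFD mice averaged 5.64 on chip B. Its near-identical paralogs Serpina1a to Serpina1d read far brighter, 10.80 to 13.94 in HFD mice on chip A. Whether its probe also binds their RNA was not tested. The chains of C1q, which macrophages secrete, had diet differences of 0.74 (SE 0.32) for C1qa, 1.18 (SE 0.36) for C1qb and 1.20 (SE 0.38) for C1qc, which did not pass and were named after their values were seen. Of 18 liver transcription factors 11 were detected and 0 passed. With NMN and between the chips, 0 passed in these 3 lists.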

How the data were processed

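Biotin-labelled cRNA of frozen liver was measured on 1-colour bead arrays, 8 on each of 2 chips. For each probe on each array the authors deposited an average bead intensity with its detection p-value, as the file headers name them. The mean intensity of all arrays was the same, so the deposited intensities had been scaled; no source used here names the scanner software or the scaling. A second deposited table holds z scores per array (18118 probes), whose making is not given either, and these were used only as an alternative.

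Background was modelled from the detection p-values and all 25697 probes were quantile normalized and moved to log2 (limma 3.58.1 in R 4.3.3, neqc, offset 16). Probes with a detection p under 0.01 on at least 4 arrays were kept (10550). One linear model with 4 groups and empirical Bayes moderation gave each contrast, and p-values were adjusted by the Benjamini-Hochberg method over all probes kept, with a threshold of 0.05. Names came from the platform annotation (16850 probes with 1 gene, 8847 unnamed). The p-values measure the spread between mice, but the 8 HFD arrays, 4 mice measured on both chips, entered the model as separate arrays, so that repeat arrays added residual degrees of freedom. With only the 8 arrays of HFD and chow mice on chip A in the model, Klkb1, F7 and Masp1 had adjusted p-values of 0.00953, 0.0133 and 0.0277. The fit was tested on simulated data with known answers. The simulated arrays were independent of each other, so that test does not cover the repeat arrays of the HFD mice.

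The members and all gene lists were chosen with earlier results of these data known. Values per array are given for probes that passed in any comparison, for the 8 smallest p-values in each comparison and for the brightest and dimmest probe of each role list, and other names are said to have been chosen later. HFD columns of the chips carry the same animal numbers, so the mouse was a block between chips. For the other comparisons the numbers did not pair the mice: deviations of same-numbered mice from their group means correlated at 0.016, 0.090, 0.227 and 0.245 (HFD with chow) and at -0.095, -0.285, -0.012 and 0.306 (NMN with HFD). Alternatives changed the background correction, normalization, filter, arrays fitted, blocks, weights and probes per gene, and left out each mouse.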

Additional observations from a re-analysis of the deposited data

Results flagged for a closer look

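In 3 of the 136 groups of 4 arrays (34 member probes in 4 groups, 2.21%) a mouse stood far from the other 3, where chance alone marks about 1 in 20. All 3 were among HFD mice on chip A. F10 had 11.8321 in HFD mouse 4, with the others between 12.1023 and 12.1541. The same mouse had 11.98 on chip B, also the lowest there. Mbl2 had 10.1277 in HFD mouse 1, with the others between 10.6883 and 10.7145, and the same mouse had 10.23 on chip B, also the lowest there. Serpind1 had 10.884 in HFD mouse 4, with the others between 10.5927 and 10.6054, and the same mouse had 10.79 on chip B, also the highest there.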

How the results depend on the processing

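The HFD minus chow count of member probes, 3 as reported, was 6 with the deposited signal on the log2 scale, 6 with estimated array weights, 1 with no filter on detection, 5 with the replicate number as a block (F5, adjusted p = 0.0366, and Mbl2, adjusted p = 0.0338, were added) and 0 without HFD mice 2 and 3. With 1 mouse left out it was 0 to 5. For all probes that count, 665 as reported, was 386 with no filter, 1111 with array weights, 394 with z scores and 140 without HFD mice 2 and 3, and 235 to 822 with 1 mouse left out. With the replicate number as a block it was 791. That block matched HFD and chow mice by number, although the numbers did not pair them. The NMN minus HFD count of members was 0 in all 25 alternatives, the replicate block and the fit without HFD mice 2 and 3 included. For all probes it was 1 with the mouse as a random block, 1 with array weights, 1 without HFD mice 2 and 3, and 0 to 6 with 1 mouse left out. Between the chips, the count over all probes, 5 as reported, was 12 with the deposited signal, 3 with no filter, 3 for probes detected on all 16 arrays, 3 with only the arrays compared, 515 with the mouse as a random block (correlation 0.788), 19 with the replicate block, 9 with array weights, 3 with 1 probe per gene, 0 without HFD mice 2 and 3, and 0 to 6 with 1 mouse left out. Members counted 5 there with the random block and 2 with the replicate block. F11 turned from negative to 0.0054 with the deposited signal and Kng1 from positive to -0.031 in z scores. Members below 0 numbered 21 to 29 for HFD minus chow and 25 to 32 for NMN minus HFD, and the medians stayed between -0.19 and -0.11 and between -0.18 and -0.09. The cause of these shifts was not tested.

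With 4 mice a group, the number of mice limits what a difference can pass, and dim probes such as F11, Kng1 and Plau lie near the background. Genes at 0 detected arrays have no level here.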
